A study of Mus musculus with 3 samples.

Results

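Splicing factors and RNA-binding splicing regulators were followed in KPC78 cells, a mouse line of pancreatic ductal adenocarcinoma, as 130 of the 35764 gene symbols in the deposited expression table. The members were chosen by symbol alone: SR proteins (Srsf, Tra2), hnRNP proteins (Hnrnp), factors of the branch site and 3′ splice site (Sf1, Sf3a, Sf3b, U2af), snRNP proteins (Snrp), Prpf processing factors, Rbm proteins, and the Ptbp, Mbnl, Celf, Rbfox, Esrp, Nova, Khdrbs and Khsrp regulators. The symbol rule uses no measured value, although it was written with earlier results of these data known. The series holds polyadenylated RNA of 1 group, KPC78 cells with the genotype given as WT, in replicates 1, 2 and 3. It has no control or treated group, so every comparison below is between genes within the same libraries. The replicates are called biological without a statement of how the cultures were separated, and the tests therefore measure the spread between these 3 libraries, which may be technical. KPC78 is a single cell line. Of 8 markers of duct and pancreatic epithelium 7 reached 1 TPM in every library, against 55.4% of all protein-coding symbols. Krt18 stood at 1472 ± 31.0 TPM (SD, n = 3), but Sox9 at 5.91 ± 0.38 TPM and Muc1 at 1.44 ± 0.39 TPM. Epcam stood at 0.16 ± 0.053 TPM.

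Introns are removed from transcripts by the spliceosome, in which small nuclear RNPs recognise the 5′ splice site and the branch site and are then remodelled by processing factors. SR proteins mostly promote the use of the exons they bind, and many hnRNP proteins oppose it or act by position. Regulators such as Ptbp, Mbnl, Rbfox, Celf, Nova and Esrp proteins bind short RNA motifs and are known for splicing choices that differ between epithelium, muscle and neurons.

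Of the 130 members, 112 were detected, meaning at least 1 TPM (a share of transcripts corrected for their length) in every library. By the same rule 32.6% of all symbols in the table and 55.4% of the 19527 protein-coding symbols were detected, while the members reached 86.2%. The 18 members that were not detected fell mainly among the sequence-specific regulators, with 10, and the Rbm proteins, with 6. All 20 hnRNP members, all 12 branch-site and 3′ splice-site members and all 13 Prpf members were detected. The median of the members' mean levels was 55.5 TPM, and 46 members (35.4%) reached a mean of 100 TPM, against 4.12% of all symbols and 12.6% of the detected symbols.

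Together the members summed to 14690.5 TPM in replicate 1, 14008 TPM in replicate 2 and 14402 TPM in replicate 3, with a mean of 14367 ± 342 TPM (SD, n = 3), or 1.44% of the table. The hnRNP genes held 44.5% of that sum, the snRNP genes 14.9%, the SR genes 11.3%, the Rbm genes 11.3%, the branch-site and 3′ splice-site genes 8.08%, the sequence-specific regulators 5.38% and the Prpf genes 4.50%. The 5 highest members took 25.7 ± 0.26% of the members' TPM and the 20 highest took 56.7 ± 0.42% (SD, n = 3). The hnRNP genes thus held the largest part of the sum. The order of the role groups was the same in every library apart from the Rbm and SR groups, which lay close together.

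**Figure D1:**
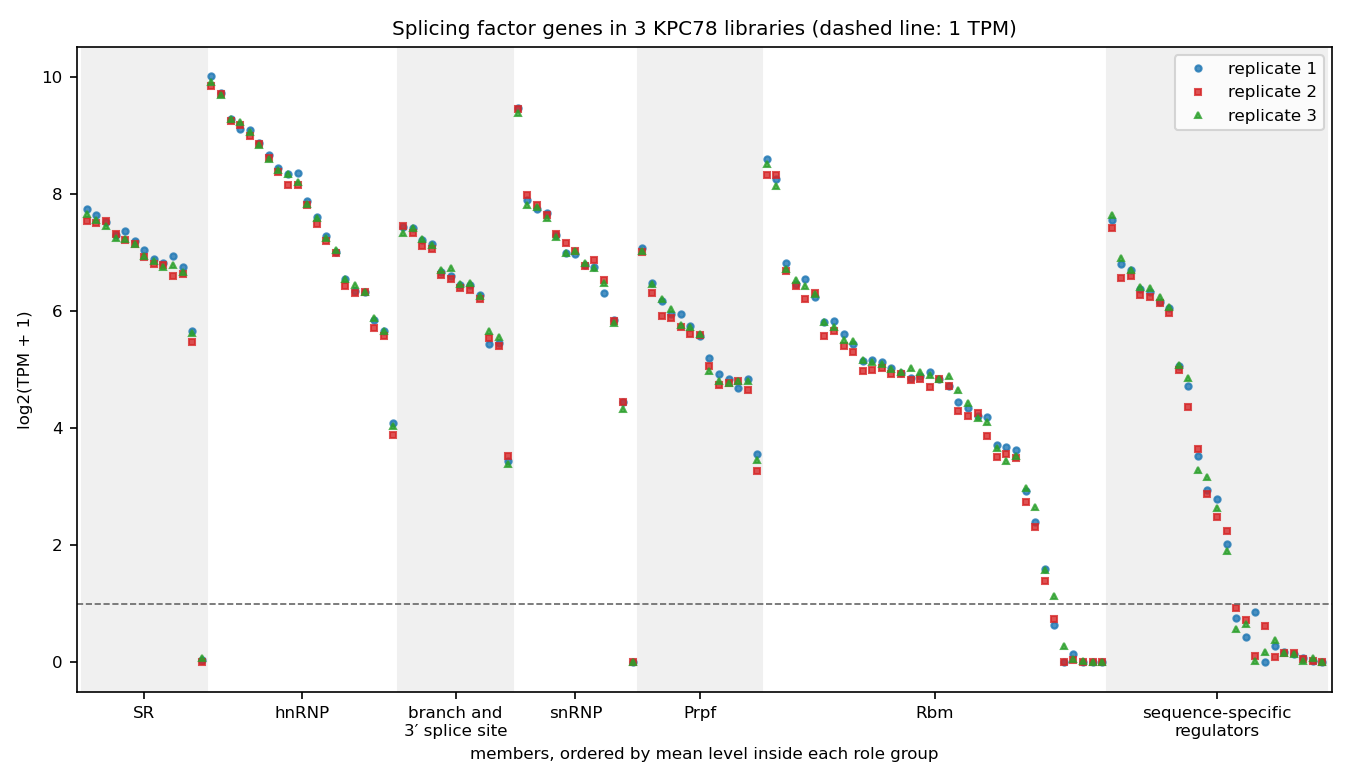
Level of each of the 130 members in replicates 1, 2 and 3 as log2(TPM + 1) on the y axis, with members ordered by mean level inside each role group on the x axis. The dashed line marks 1 TPM, below which the undetected members lie apart from the replicate 3 point of Rbm47, while all 20 hnRNP genes lie above it.

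The snRNP proteins build the core particles of the spliceosome. Snrpb, Snrpd1, Snrpd2, Snrpd3, Snrpe, Snrpf and Snrpg form the Sm ring around the small nuclear RNA, with 1 copy of each protein. Their listed levels were unequal. Snrpe stood at 706, 702 and 666 TPM in replicates 1, 2 and 3, Snrpg at 236, 252 and 224 TPM and Snrpf at 78.3, 91.9 and 88.7 TPM. The Snrpe values lay above, and the Snrpf values below, those of the other Sm genes in every library. Snrpb stood at 218 ± 5.49 TPM, Snrpd1 at 198 ± 6.37 TPM, Snrpd2 at 109.6 ± 5.76 TPM and Snrpd3 at 109.8 ± 2.32 TPM (SD, n = 3). Snrpe was 8.05 ± 0.83-fold above Snrpf (log2 ratio 2.99, SE 0.056, limma adjusted p = 5.21e-10), and higher in 3 of 3 libraries.

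Part of this spread moved with near-identical gene copies that the table lists under their own symbols. Gm8186, a processed pseudogene of Snrpg at chr17:26098991-26099221 (GRCm38, minus strand, overlapping no other annotated gene), was listed at 243, 220.4 and 217 TPM. Gm13092, a processed pseudogene of Snrpf at chr4:150315177-150315436 (GRCm38, minus strand), lies inside Rere on the opposite strand and overlaps none of its exons. It was listed at 211, 229.7 and 181 TPM, above Snrpf itself in every library. The Gm8186 sequence equals the whole 231-base coding sequence of Snrpg (chr6:86371304-86379328, plus strand), and Gm13092 differs from 260 bases of the Snrpf coding sequence (chr10:93583029-93589706, minus strand) at 4 positions. Both pairs are shown because reads inside them can be told apart at few or no positions. Capitals mark the bases that differ between a gene and its copy, with sequences from the GENCODE M21 transcripts.
Snrpg: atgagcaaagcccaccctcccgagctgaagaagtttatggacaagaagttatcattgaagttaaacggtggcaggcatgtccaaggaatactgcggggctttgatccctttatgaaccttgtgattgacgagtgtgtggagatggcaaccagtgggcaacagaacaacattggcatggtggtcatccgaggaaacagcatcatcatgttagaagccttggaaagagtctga
Gm8186: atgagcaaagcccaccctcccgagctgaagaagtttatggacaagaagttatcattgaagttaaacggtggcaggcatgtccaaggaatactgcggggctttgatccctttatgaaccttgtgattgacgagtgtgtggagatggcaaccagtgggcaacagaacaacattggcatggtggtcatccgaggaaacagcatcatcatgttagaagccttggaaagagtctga
Snrpf: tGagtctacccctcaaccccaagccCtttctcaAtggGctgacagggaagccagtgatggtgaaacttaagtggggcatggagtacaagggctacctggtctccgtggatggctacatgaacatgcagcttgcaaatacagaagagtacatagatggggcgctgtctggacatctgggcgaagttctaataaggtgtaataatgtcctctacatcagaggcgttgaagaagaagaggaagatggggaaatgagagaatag
Gm13092: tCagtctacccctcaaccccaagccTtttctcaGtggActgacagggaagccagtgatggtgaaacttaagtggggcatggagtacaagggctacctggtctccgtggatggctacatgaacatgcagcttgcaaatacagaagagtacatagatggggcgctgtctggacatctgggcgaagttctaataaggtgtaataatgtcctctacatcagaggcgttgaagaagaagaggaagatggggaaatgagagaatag

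With the copies' TPM added, Snrpf came to 294 ± 26.2 TPM and Snrpg to 464 ± 20.4 TPM (SD, n = 3). The copies made up 70.6% of the sum for Snrpf and 48.9% of that for Snrpg. The only copy of Snrpe matched outside the members was listed at 0. Snrpe then stood 2.36 ± 0.16-fold above Snrpf instead of 8.05-fold, and 1.49 ± 0.018-fold above Snrpg instead of 2.91-fold. Snrpd2 and Snrpd3 became the lowest Sm genes, and Snrpe remained 6.31 ± 0.27-fold above Snrpd2 in both versions. TPM divides by length, and Gm8186 has 231 bases against 1055 for the Snrpg transcript, and Gm13092 260 against 861 for Snrpf. A read counted under a copy thus adds more TPM than under the gene. The sums, shares and ratios with copies are not corrected for this. Whether the reads came from the genes or from the copies was not tested, since the table gives TPM after the reads had been divided among transcripts.

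Snrpd2 and Snrpd3 had the closest levels of the Sm genes, at 107, 116 and 105 TPM and 109, 108 and 112 TPM. Their ranges overlapped, and the log2 ratio of -0.00 did not pass the test (95% confidence interval -0.11 to 0.10, limma adjusted p = 0.95). Snrpn, an imprinted relative of Snrpb best known from brain, stood at 20.7, 20.8 and 19.2 TPM, and Snrpb exceeded it 10.8 ± 0.60-fold (limma adjusted p = 2.03e-10). Snrpn thus held 8.49% of the combined TPM of both genes. Among the proteins of single particles, Snrpc of U1 stood at 131 ± 9.37 TPM, Snrpa of U1 at 127 ± 2.33 TPM, Snrpb2 of U2 at 156 ± 3.20 TPM and its partner Snrpa1 at 55.8 ± 1.28 TPM. Snrpb2 exceeded Snrpa 1.22 ± 0.035-fold, in 3 of 3 libraries (limma adjusted p = 8.38e-05). Snrpert, which the annotation lists as a processed pseudogene and which the symbol rule takes in, was listed at 0 in every library.

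**Figure D2:**
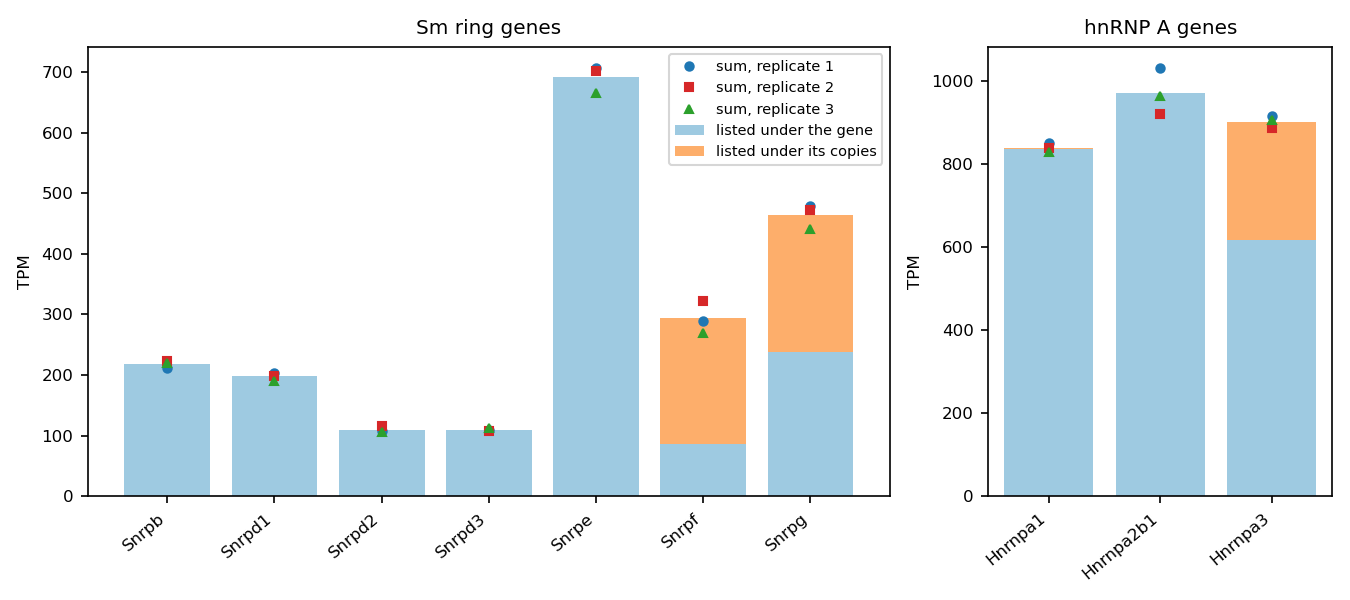
TPM of the 7 Sm ring genes (left) and of 3 hnRNP A genes (right): bars stack the mean level listed under the gene and under its near-identical copies, and points give the sum in each replicate. Copies add most to Snrpf, Snrpg and Hnrnpa3, and the added sums place Snrpf above Snrpb, which it does not reach by its listed level. The sums are not corrected for the difference in length between a gene and its copies.

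The hnRNP proteins, which coat nascent transcripts and often repress exons, gave the highest levels of any role group, with a median of 264 TPM and a sum of 6397 ± 161 TPM (SD, n = 3). Hnrnpa2b1 stood at 1029, 921 and 963 TPM, Hnrnpa1 at 846, 836 and 827 TPM and Hnrnpa3 at 621, 603 and 624 TPM. Hnrnpk, which binds C-rich RNA, stood at 551, 579.7 and 597 TPM, and Hnrnpf, which binds G-runs, at 544, 508 and 532 TPM. The ranges of the 3 hnRNP A genes did not overlap one another, in the order Hnrnpa2b1, Hnrnpa1, Hnrnpa3. The step from Hnrnpa1 to Hnrnpa2b1 was small, at 1.16 ± 0.058-fold (log2 ratio 0.21, SE 0.038, limma adjusted p = 7.85e-04). Hnrnpa0, an intronless relative, held 5.01 ± 0.15% of the TPM of the 4 hnRNP A genes, against 38.0 ± 1.1% for Hnrnpa2b1 and 32.8 ± 0.74% for Hnrnpa1.

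The Hnrnpa3 value also has a large copy beside it. Of its 38 copies, Gm5641 (chr3:54481438-54482925, GRCm38, plus strand, a transcribed processed pseudogene) was identical over 1488 bases and listed at 281, 268 and 269 TPM. The copies together held 31.7% of the joint TPM. With them Hnrnpa3 came to 902 ± 14.7 TPM and Hnrnpa1, with its own 18 copies, to 838 ± 10.3 TPM (SD, n = 3). The log2 ratio of Hnrnpa1 to Hnrnpa3 then changed from 0.44 (limma adjusted p = 2.86e-06) to -0.10 (limma adjusted p = 0.014). Gm5641 has 1488 bases against 5150 for the longest coding transcript of Hnrnpa3, and the sum is not corrected for length. Whether the order of these genes would turn with such a correction was not tested. Across the set, 142 copies that do not overlap their member matched 44 members, and 7 of them reached a mean of 1 TPM. Only for Snrpf, Snrpg and Hnrnpa3 did these copies hold 5% or more of the joint level. A further 2 matches overlap the member itself and were left out. They are Gm28036 on Rbm12, with means of 30.5 and 17.5 TPM, and Gm21992 on Rbm4, with means of 8.09 and 26.4 TPM.

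Within the H and F subfamily, which binds G-rich motifs, Hnrnpf held 57.2 ± 0.77%, Hnrnph1 32.5 ± 1.1%, Hnrnph2 8.61 ± 0.39% and Hnrnph3 1.64 ± 0.064% of the joint TPM (SD, n = 3). Hnrnph3 was the lowest hnRNP gene at 16.1, 13.8 and 15.5 TPM, with Hnrnph1 19.9 ± 0.85-fold above it. Hnrnph2, on the X chromosome, had the smallest relative spread of any detected member, with 79.4, 79.6 and 79.2 TPM and a coefficient of variation of 0.25%. In the D subfamily, known for AU-rich elements, Hnrnpab stood at 462 ± 4.81 TPM, Hnrnpd at 338 ± 8.87 TPM and Hnrnpdl at 151 ± 4.67 TPM. Hnrnpl, a CA-repeat binder, exceeded its paralog Hnrnpll, studied mostly in lymphocytes and plasma cells, 4.70 ± 0.12-fold, at 228 ± 6.31 against 48.6 ± 1.62 TPM. The scaffold protein gene Hnrnpu stood at 309.8 ± 23.6 TPM, 3.43 ± 0.11-fold above Hnrnpul1, and Hnrnpul1 stood 1.64 ± 0.033-fold above Hnrnpul2.

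RefSeq promoter windows, the 250 bases before each annotated start (GRCm38.p6), were matched by symbol for 107 members and 15980 symbols in all. CCAAT on either strand (ATTGG on the other) was found for 13 of 18 hnRNP genes (72.2%), against 51.1% of the 92 detected members with a window, 41.7% of all detected symbols and 39.7% of all symbols. Among SR genes it was found for 4 of 13. CCGGAAG on either strand (CTTCCGG on the other) was found for 23 of 92 detected members (25%), against 16.9% of all detected symbols. The 15 undetected members had 0, but the letters were rare among all undetected symbols too. Of the 1732 symbols of the table with CCGGAAG, 1502 were detected. It was present for 6 of 9 branch-site and 3′ splice-site genes. TATAAA on either strand (TTTATA on the other) was found for 13.0% of the detected members and 7.81% of all detected symbols. A symbol with several windows was counted once if any of them held the letters, and a match is only a description of letters. The median number of CpG dinucleotides in the window was 19 for the detected members and 18 for all detected symbols, and reached 27 for the hnRNP genes. The windows of the 3 highest hnRNP genes with a single window are shown with CCAAT or ATTGG in capitals: 4 matches before Hnrnpa1 (chr15:103240147-103240396, plus strand), 2 before Hnrnpa3 (chr2:75659009-75659258, plus strand) and 2 before Hnrnpk (chr13:58402118-58402367, minus strand).
Hnrnpa1: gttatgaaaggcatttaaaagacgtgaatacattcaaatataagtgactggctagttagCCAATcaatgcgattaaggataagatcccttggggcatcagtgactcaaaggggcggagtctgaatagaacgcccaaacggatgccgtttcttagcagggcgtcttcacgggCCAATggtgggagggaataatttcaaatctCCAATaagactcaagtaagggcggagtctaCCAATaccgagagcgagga
Hnrnpa3: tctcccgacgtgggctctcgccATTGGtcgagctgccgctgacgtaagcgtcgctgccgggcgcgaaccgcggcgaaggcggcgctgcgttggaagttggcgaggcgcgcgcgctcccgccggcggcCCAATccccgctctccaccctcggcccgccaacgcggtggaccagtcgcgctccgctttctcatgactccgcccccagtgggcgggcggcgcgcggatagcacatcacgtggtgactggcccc
Hnrnpk: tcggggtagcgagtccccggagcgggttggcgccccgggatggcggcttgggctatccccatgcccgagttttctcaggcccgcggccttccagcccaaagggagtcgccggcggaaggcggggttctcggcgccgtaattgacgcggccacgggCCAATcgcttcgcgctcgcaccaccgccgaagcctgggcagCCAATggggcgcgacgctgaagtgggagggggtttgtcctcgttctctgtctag

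SR proteins carry a domain rich in arginine and serine and bind exonic enhancers. Of the 13 SR genes, 12 were detected, 11 of them at a mean of 100 TPM or more, and their sum was 1626 ± 64.8 TPM (SD, n = 3). The group was even compared with the hnRNP genes: its detected members ran from 47.1 ± 3.24 TPM for Srsf4 to 199.7 ± 15.0 TPM for Srsf5. Srsf5 stood at 214, 184 and 202 TPM, Srsf2 at 199, 181 and 188 TPM and Srsf3 at 183, 184 and 175 TPM. The ranges of these 3 leading genes overlapped, and Srsf3 lay above Srsf2 in replicate 2. Srsf1, the founding member, stood at 164, 148 and 149.5 TPM, and Srsf9, its closest paralog, at 157, 158 and 151 TPM. The libraries of Srsf1 and Srsf9 overlapped, and their log2 ratio of -0.01 did not pass the test (95% confidence interval -0.11 to 0.08, limma adjusted p = 0.73).

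Other SR paralogs differed. Srsf5 exceeded Srsf4 4.24 ± 0.065-fold (limma adjusted p = 5.83e-10) and Srsf6 1.75 ± 0.075-fold (limma adjusted p = 1.74e-07). Srsf3 exceeded Srsf7, its closest paralog, 1.28 ± 0.031-fold (limma adjusted p = 2.01e-05), with Srsf7 at 145, 140.4 and 139.8 TPM. Tra2a stood at 130.4, 121 and 121 TPM and Tra2b at 112, 109 and 107 TPM, and Tra2a, which is partly redundant with Tra2b, was 1.14 ± 0.031-fold higher, in 3 of 3 libraries (limma adjusted p = 0.0014). Srsf10, a splicing repressor when dephosphorylated, stood at 106, 98.3 and 101 TPM, while its paralog Srsf12 was listed at 0.029, 0 and 0.057 TPM. Their log2 ratio of (TPM + 1) was 6.64, which the added 1 TPM makes smaller than the ratio of the levels. Srsf11, at 122, 96.3 and 109 TPM, had the widest relative spread of the detected SR genes, with replicate 2 the lowest.

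Many SR genes have annotated transcripts that carry a premature stop and are marked for nonsense-mediated decay, the route by which SR proteins are known to limit their own levels. GENCODE M21 lists such a transcript for 11 of 13 SR genes (84.6%), 10 of 20 hnRNP genes and 56 of 129 protein-coding members (43.4%), against 22.6% of all protein-coding symbols. For the detected members the share was 49.1%, against 29.9% of the detected protein-coding symbols. A retained-intron transcript was listed for 75.9% of the detected members, against 61.2% of the detected protein-coding symbols. The detected members also had more annotated transcripts, with a median of 6 against 5 for the detected protein-coding symbols, and SR genes had 7. The shares are not corrected for this. The table gives 1 value per gene, so the share of decay-marked or retained-intron transcripts in a gene's level was not measured.

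Branch-point and 3′ splice-site recognition runs through Sf1 and the U2af dimer and then the SF3a and SF3b complexes of the U2 particle. U2af1, the subunit that contacts the AG of the 3′ splice site, stood at 173, 174 and 161 TPM, and its partner U2af2, which binds the polypyrimidine tract, at 139.9, 132 and 139 TPM. U2af1 was 1.24 ± 0.081-fold higher, in 3 of 3 libraries (limma adjusted p = 2.22e-04). The branch-point binding protein gene Sf1 stood at 148, 138 and 149 TPM. In SF3a, Sf3a3 stood at 75.01 ± 1.66 TPM and exceeded Sf3a1 1.72 ± 0.076-fold. Sf3a1 stood at 43.1, 41.4 and 46.4 TPM and Sf3a2 at 42.2, 45.5 and 49.5 TPM. Their ranges overlapped, and the log2 ratio of Sf3a2 to Sf3a1, 0.07, did not pass the test (95% confidence interval -0.04 to 0.18, limma adjusted p = 0.21).

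The SF3b genes lay within 1.96-fold of one another in the mean, apart from Sf3b5. Sf3b1, the subunit that clasps the branch point and is a frequent mutation target in human blood cancers, stood at 86.3, 80.8 and 88.0 TPM. Sf3b2, the highest, stood at 169, 159.8 and 170.1 TPM and exceeded Sf3b1 1.96 ± 0.022-fold. Sf3b3, Sf3b4 and Sf3b6 had means from 85.6 to 101 TPM. Sf3b5, a small subunit present once per complex, stood at 9.86, 10.5 and 9.42 TPM, and was lower than Sf3b1 by 8.59 ± 0.84-fold, in 3 of 3 libraries (log2 ratio of Sf3b5 to Sf3b1 -2.98, limma adjusted p = 2.47e-09). The annotated coding transcript of Sf3b5 is 3841 bases long, and TPM divides by such a length. The part of that length in the low value was not tested.

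The Prpf genes encode proteins of the tri-snRNP and of the activation steps, and gave the lowest sum of the role groups, 646 ± 29.0 TPM (SD, n = 3). Prpf19, the ubiquitin ligase of the activation complex, stood at 134, 128 and 129 TPM. Prpf8, the scaffold of the catalytic centre, stood at 71.3, 59.4 and 72.8 TPM, and Prpf6, a bridging protein of the tri-snRNP, at 60.9, 58.0 and 64.3 TPM. Prpf8 was higher than Prpf6 in 3 of 3 libraries, but only 1.11 ± 0.076-fold (limma adjusted p = 0.019), and without replicate 1 or 3 the adjusted p rose to 0.12 or 0.091. Prpf38b stood at 55.3 ± 4.79 TPM, 1.17 ± 0.115-fold above Prpf38a, and Prpf31, a binder of U4 RNA, at 50.7 ± 2.69 TPM. Prpf3 and Prpf4, which meet in the U4/U6 particle, were unequal: Prpf3 stood at 35.5, 32.3 and 30.7 TPM and Prpf4 at 10.8, 8.69 and 9.93 TPM, a difference of 3.37 ± 0.32-fold (limma adjusted p = 8.50e-08).

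Rbm genes share an RNA-recognition motif and otherwise have varied roles, and 30 of 36 were detected. Rbm39, a U2af-like coactivator that aryl sulfonamide drugs degrade in human cells, stood at 386, 318 and 364 TPM. Rbm3, a cold-induced RNA-binding protein, stood at 303, 321 and 281 TPM. Both lay above every other Rbm gene in every library, with Rbm3 above Rbm39 in replicate 2 only. The next gene, Rbm17, a 3′ splice-site factor, stood at 111, 101 and 105 TPM. Rbm8a, a core subunit of the exon junction complex, stood at 87.9 ± 3.59 TPM and Rbm25, which binds exonic enhancers, at 83.5 ± 10.1 TPM. Among the apoptosis-linked relatives, Rbm5 stood at 52.4 ± 4.999 TPM, 1.26 ± 0.042-fold above Rbm6 and 1.70 ± 0.10-fold above Rbm10.

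Further Rbm pairs differed by more. Rbm15b, a cofactor of m6A RNA methylation, exceeded its relative Rbm15 2.89 ± 0.14-fold (limma adjusted p = 6.51e-08), at 32.8 ± 1.19 against 11.4 ± 0.92 TPM. By its listed level, which leaves out the overlapping Gm21992, Rbm4 exceeded Rbm4b 2.47 ± 0.25-fold. Rbm26 exceeded Rbm27 1.79 ± 0.058-fold. Rbm38, a p53 target, stood at 28.0, 27.2 and 31.6 TPM, while its paralog Rbm24, known from heart and skeletal muscle, was listed at 0, 0 and 0.21 TPM. Rbm20, the heart splicing factor that acts on titin, was the lowest detected member, at 2.03, 1.62 and 2.00 TPM, followed by Celf2 at 3.08, 3.71 and 2.73 TPM and Rbm41 at 4.24, 3.94 and 5.27 TPM. Just below the limit lay Rbm47, an epithelial regulator, at 0.56, 0.68 and 1.204 TPM, of which only replicate 3 reached 1 TPM. Rbm11 and the Y-linked Rbm31y stayed at or below 0.10 TPM, and the germ-cell genes Rbm44 and Rbm46 were listed at 0 in every library.

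Of the 23 sequence-specific regulators 13 were detected (56.5%), close to the 55.4% of all protein-coding symbols. Usually 1 gene per family carried most of the level. In RNA from whole cultures, a low level in all cells and a higher level in a few cells cannot be told apart. Ptbp1, the widely expressed repressor that binds pyrimidine tracts, stood at 186, 170.0 and 197 TPM, its neuronal counterpart Ptbp2 at 25.5, 19.7 and 28.0 TPM and Ptbp3, first described in blood cells, at 32.2, 30.8 and 32.9 TPM. Ptbp1 held 76.6 ± 0.41% of the Ptbp total and exceeded Ptbp2 7.67 ± 0.86-fold (log2 ratio 2.88, SE 0.064, limma adjusted p = 1.32e-09). Ptbp2 had the largest relative spread of any detected member, a coefficient of variation of 17.6%, with replicate 2 the lowest. Ptbp3 stayed above Ptbp2 in every library, by 1.34 ± 0.21-fold (limma adjusted p = 0.0015).

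Mbnl1 and Mbnl2, regulators of developmental splicing that are sequestered in myotonic dystrophy, were both present, at 111, 93.7 and 119 TPM and 81.8, 76.0 and 84.1 TPM. Mbnl1 was 1.33 ± 0.091-fold higher in 3 of 3 libraries (limma adjusted p = 4.72e-05), and Mbnl3 stood at 0.11 ± 0.0049 TPM. Rbfox2, which binds UGCAUG, held 99.7 ± 0.18% of the Rbfox total, at 70.6, 69.4 and 75.01 TPM, while Rbfox1 stood at 0.20 ± 0.12 TPM and the neuronal marker Rbfox3 at 0.026 ± 0.022 TPM. Celf1, a binder of GU-rich RNA, held 87.5 ± 0.97% of the total of 6 Celf genes at 65.5, 61.5 and 66.4 TPM and stood 20.7 ± 3.9-fold above Celf2. Celf4, mostly known from brain, was detected at 5.90, 4.62 and 5.22 TPM, whereas Celf3, Celf5 and Celf6 had means from 0.037 to 0.53 TPM. Khdrbs1, also called Sam68, held 90.5 ± 1.5% of the Khdrbs total at 102, 95.7 and 104 TPM, 9.99 ± 1.8-fold above Khdrbs3. Khdrbs2 reached 0.82 TPM in replicate 1 but only 0.082 and 0.012 TPM in replicates 2 and 3. Khsrp, a KH-domain protein that also acts in mRNA decay, stood at 79.1, 74.6 and 83.4 TPM.

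Esrp1 and Esrp2 are known for the epithelial exon choices of Fgfr2 and Cd44. Esrp1 was listed at 0 in every library and Esrp2 stood at 6.70, 6.30 and 7.92 TPM, a log2 ratio of (TPM + 1) of 2.99 (limma adjusted p = 2.33e-09). Nova1 and Nova2, neuronal regulators, stood at 0.69, 0.91 and 0.48 TPM and at 0.14, 0.12 and 0.12 TPM. Of a list of 9 neuron markers 3 were detected, Tubb3, Snap25 and Syp, and the list summed to between 8.74 and 9.37 TPM. Of 8 striated muscle markers only Tnnt2 was detected, at 109 ± 4.42 TPM, and Myod1 was listed at 0. No leukocyte marker of 6 was detected, and their sum was 0.065 to 0.14 TPM. The share of all protein-coding symbols detected was 55.4%.

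Across the families, 54 pairs of related genes or complex partners had both symbols in the table, and 52 were tested by the log2 ratio of (TPM + 1) within each library. Of these 49 passed at an adjusted p below 0.05 in limma, with 96.0% of all 46699 like-named gene pairs passing by the same test. The count of splicing pairs was thus near that background. The median absolute log2 ratio was 0.90 for the splicing pairs and 1.94 for all pairs tested. These sizes are not like for like, since the splicing pairs were picked as relatives or partners. All pairs took every like-named combination in families of up to 60 genes. The 3 splicing pairs that did not pass were Srsf1 with Srsf9, Sf3a2 with Sf3a1 and Snrpd2 with Snrpd3. Nova1 with Nova2 and Rbm46 with Rbm47 were too low to test.

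**Figure D3:**
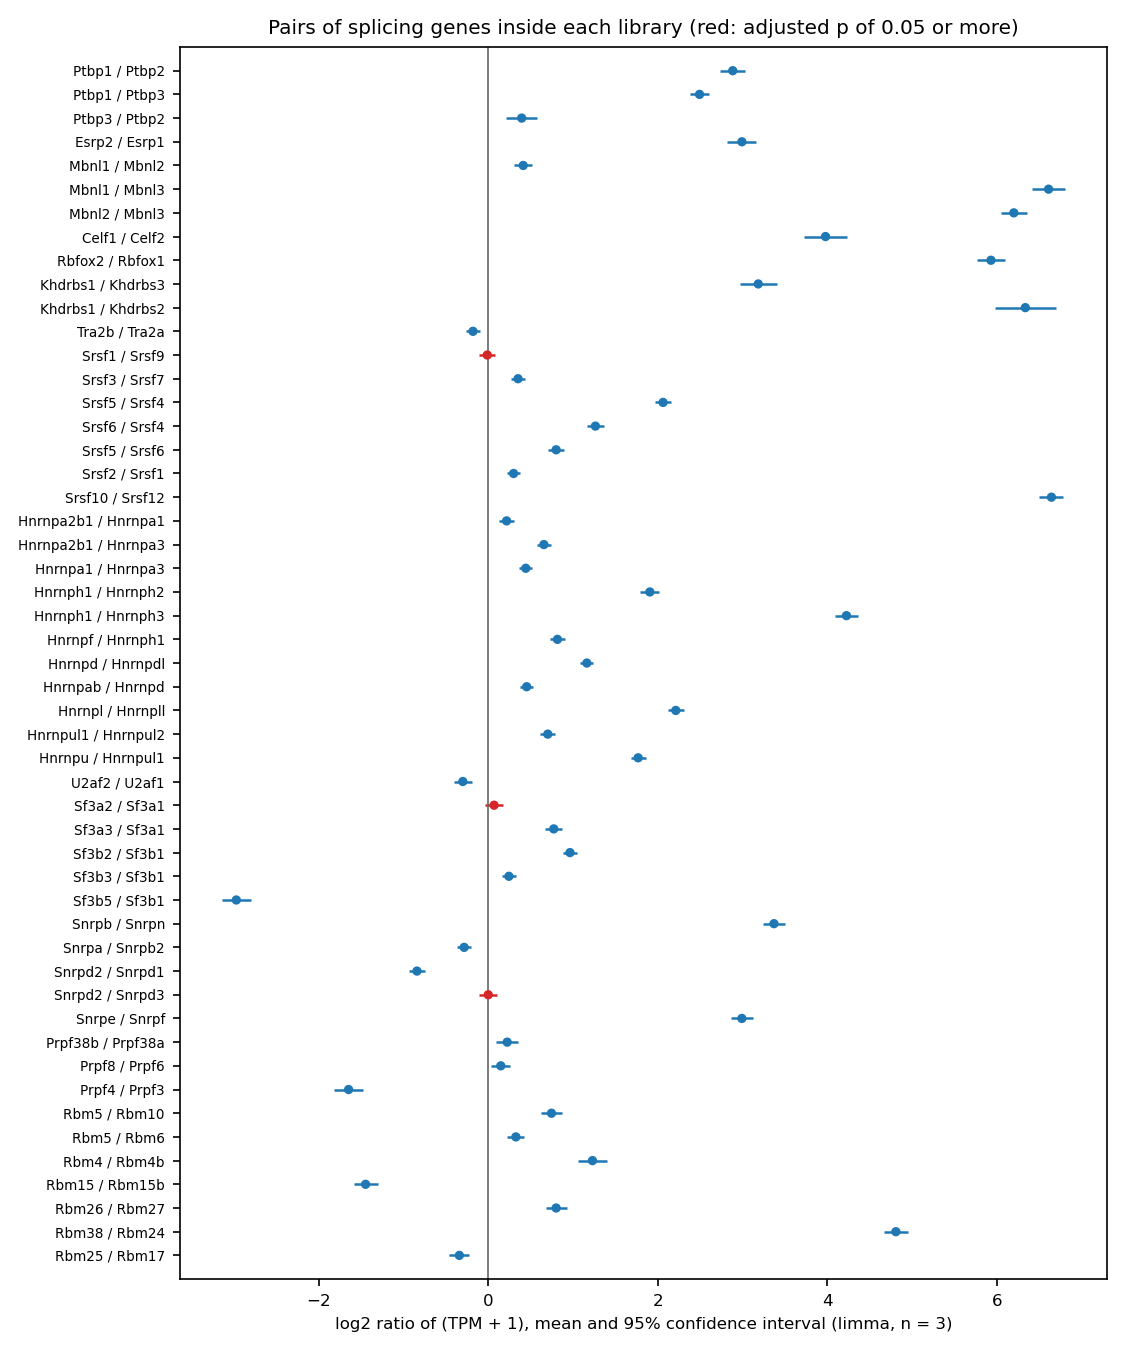
Mean log2 ratio of (TPM + 1) and its 95% confidence interval from limma (n = 3 libraries) for 51 of the 52 tested pairs, with the first-named gene higher to the right of 0. The 3 red pairs, near 0, did not pass at an adjusted p below 0.05, and the ratios furthest to the right set a detected gene against a relative below 1 TPM.

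Genes that act with the members were nearly all present. Of 105 further splicing genes in 9 lists, 99 were detected (94.3%), against 55.4% of all protein-coding symbols. The lists of other snRNP proteins (10 genes, led by Snrnp70 at 168 ± 8.14 TPM and Snrnp27 at 100.2 ± 5.73 TPM), the Lsm ring (7 genes, led by Lsm7 at 137 ± 9.68 TPM and Lsm4 at 122 ± 0.50 TPM) and the exon junction complex with its decay partners (10 genes, led by Magoh at 173 ± 9.11 TPM and Eif4a3 at 128 ± 3.63 TPM) were complete. So were the spliceosomal helicases (9 genes, led by Ddx39b at 198 ± 5.66 TPM and Dhx15 at 118 ± 6.07 TPM), the Prp19 complex (10 genes, led by Bud31 at 121 ± 3.88 TPM and Bcas2 at 99.8 ± 4.53 TPM) and the SMN assembly genes (13 genes, led by Strap at 202 ± 1.82 TPM and Clns1a at 79.8 ± 4.18 TPM). All 9 minor-spliceosome genes were detected at a lower median of 27.5 TPM, led by Zcrb1 at 82.1 ± 2.13 TPM and Zrsr2 at 42.6 ± 3.53 TPM.

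Of the 9 SR protein kinases and importers 8 were detected, led by Srpk1 at 71.4 ± 6.12 TPM and Tnpo3 at 68.2 ± 3.18 TPM, and Srpk3, a muscle kinase, stood at 0.014 ± 0.025 TPM. Among 28 other regulators 23 were detected, led by Pcbp2 at 765 ± 12.6 TPM and Pcbp1 at 348 ± 16.1 TPM, which bind poly(C). The 5 that were not are known mainly from neurons: Elavl2, Elavl3 and Elavl4 stood at or below 0.23 TPM in the mean, Srrm3 at 0.075 ± 0.0075 TPM, and Srrm4, the driver of neuronal microexons, was listed at 0.

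Levels were close between libraries. For the 104 members at a mean of 10 TPM or more, the median coefficient of variation was 4.67%, against 5.29% for all 8502 genes at that level. Among all 112 detected members, the largest values after Ptbp2 were 15.7% for Celf2, 15.6% for Rbm41, 13.5% for Khdrbs3 and 12.9% for Rbm19. The smallest after Hnrnph2 were 0.57% for Rbm34, 0.70% for Rbm14, 1.04% for Hnrnpab and 1.16% for Hnrnpa1.

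Deviations between the libraries moved with transcript length. Replicate 2 was the lowest library for 79 of the 112 detected members (70.5%), against 61.1% of all detected genes. Among the 104 members at 10 TPM or more, replicate 2 lay below the mean of the other libraries for 76.0%, against 75.5% of 8093 genes, with a median log2 deviation of -0.08 for the members and -0.07 for all genes. Spearman's rho between the deviation of replicate 2 and the length of the longest coding transcript was -0.46 across the 104 members and -0.49 across all genes. For replicate 3 it was 0.44 across the members and 0.38 across all genes, and for replicate 1 it was 0.16 and 0.24. These values are given as a description since the genes share their libraries. The snRNP genes, whose median transcript length was 1204.5 bases against 3031 bases for the members as a whole, went the other way: replicate 2 was below the others' mean for 1 of 12, and their median deviation was 0.05. Genes of the table from 1000 to under 2000 bases long had a median deviation of -0.02 in replicate 2, with 983 of 1711 below the others' mean, and members of that length had 13 of 22 below it. These 22 include Snrpa, Snrpa1, Snrpb, Snrpc, Snrpd2 and Snrpg, which all lay above it. Most genes of this length class thus lay below, but these snRNP genes were at its short end, from 1013 bases (Snrpc) to 1420 bases (Snrpd2). Of the other members in that stretch, U2af1 (1046 bases, 0.06) and Srsf9 (1162 bases, 0.04) also lay above. Sf3b6 (1180 bases, -0.12) lay below. Genes under 1000 bases had a median of 0.05, with 126 of 448 below. The members' deviation in replicate 2 was thus close to that of the whole table, and the part of transcript length in each gene's value was not tested.

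**Figure D4:**
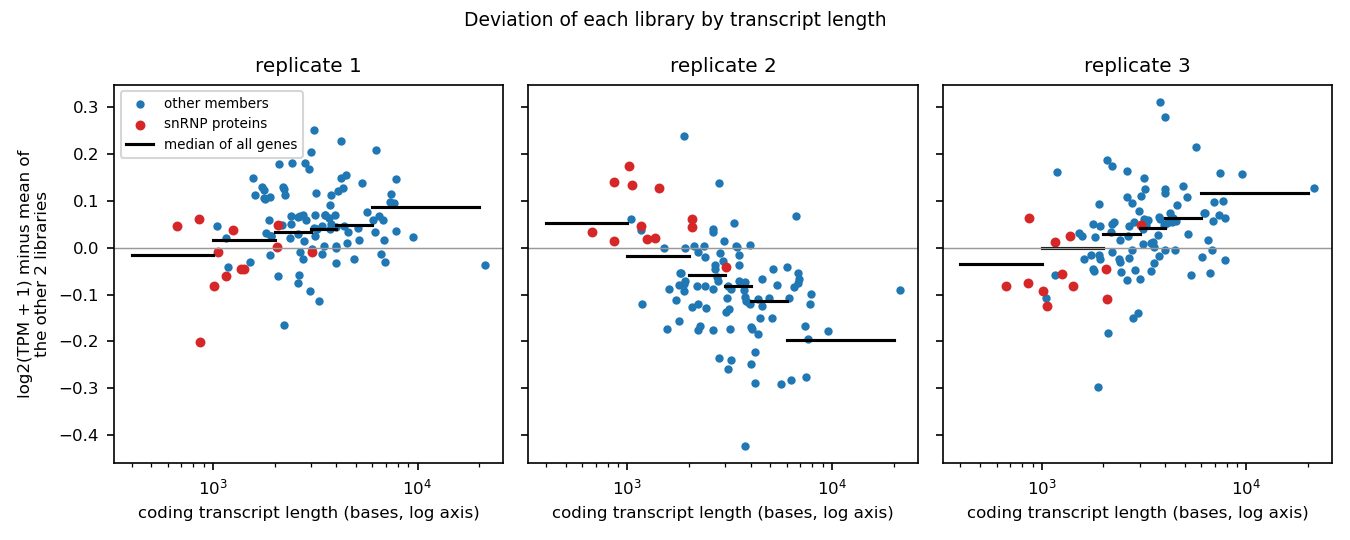
Deviation of each replicate, as log2(TPM + 1) minus the mean of the other libraries (y axis), against coding transcript length in bases on a log axis (x axis), for 104 members with snRNP genes in red and black bars for the median of all genes in a length class. In replicate 2 the longer genes lie lower and the short snRNP genes lie mostly above 0.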

How the data were processed

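RNA of KPC78 cells was enriched with oligo-dT and made into libraries with TruSeq chemistry, per the labels' protocols. The authors deposited TPM per gene symbol for 3 libraries, a level corrected for transcript length and scaled to a fixed total. Kallisto 0.44.0, bcl2fastq 2.19 and the build GRCm38.p6 are named in the submitters' processing notes. The annotation release is not given in the sources used here. This kind of quantification divides reads shared by near-identical transcripts by a model, so a gene and its copies are uncertain. Read depth cannot be recovered from TPM, so no counting intervals are given, and libraries summed to between 999728 and 999776 TPM. A further 3 columns of the deposit whose names match no label were not used.

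Members were taken by symbol, and all 130 were matched to GENCODE M21 (GRCm38). The members, pairs and gene lists were chosen with earlier results of these data known. A gene was called detected at 1 TPM or more in every library. Pair ratios were the log2 ratio of (TPM + 1) within a library, tested against 0, two-sided, by an intercept model in limma 3.58.1 (R 4.3.3, moderated spread following the level of the lower gene, Benjamini-Hochberg adjustment over 46699 like-named pairs, threshold 0.05). The added 1 TPM understates ratios to low genes, and folds average the ratio of TPM over libraries where both genes were detected. The fit was checked on simulated data first. With 3 libraries the smallest p of an exact sign-flip test is 0.25, so none was used. Copies were pseudogenes or predicted genes of the table outside the members, so Snrpert was not searched. Each had a BLAST 2.17.0 match of at least 90% identity over at least 50% of its length, and its best match was a member. The 2 matches that overlap the member itself were left out. This search was added after the data were seen. Named genes were the 5 highest of each role group, the genes of the pairs, the extremes of spread, those next to the detection limit, the undetected members and the 2 highest of each list. A gene that this rule names, with its pair, is not reported here. The copies, the further SF3b and snRNP genes and the 3 printed promoters were named after their values were seen. Alternatives changed the detection level, the pseudocount, the filter on low pairs, the prior spread, the family size, the scaling without 423 mitochondrial and ribosomal protein genes, and the libraries used.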

Additional observations from a re-analysis of the deposited data

How the results depend on the processing

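The number of detected members was 112 in every alternative except 113 at a limit of 0.5 TPM and 108 at 5 TPM, and 99 pathway genes were detected in each. The summed TPM of the members came to 19604 TPM with mitochondrial and ribosomal protein genes left out of the scaling, and ranged from 14205 to 14546 TPM with 1 library left out. Between 48 and 51 pairs passed over the alternatives, against 49. The 51 came without the filter on low pairs, where the pairs too low for the main test were also tested. Rescaling, with 50, likewise lifted Rbm46 with Rbm47 over that filter. Of 520 combinations of 52 pairs and 10 alternatives, 513 kept their direction and their side of the threshold. The log2 ratio of Hnrnpa1 to Hnrnpa3 turned to -0.10 when the copies were added to the genes, without a correction for their length. This alternative was chosen after seeing the data. The ratio of Snrpd2 to Snrpd3, near 0 throughout, ranged from -0.058 to 0.041 on the log2 scale with 1 library left out (0.0093 without replicate 1), and that of Srsf1 to Srsf9 from -0.054 to 0.024. Prpf8 with Prpf6 was lost with 1 prior spread for all pairs (limma adjusted p = 0.060) and without replicate 1 (limma adjusted p = 0.12) or replicate 3 (limma adjusted p = 0.091). The cause was not tested, beyond the smaller number of libraries in the last cases. No contrast between groups was possible because all libraries belong to 1 group. With 3 libraries of unknown depth, levels below about 1 TPM cannot be ordered.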
